A study of Homo sapiens with 3 samples.

Results

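The genes described here are 10 regulators of the G1 phase of the cell cycle and of entry into S phase: the D-type cyclins CCND1 and CCND3, their kinases CDK4 and CDK6, the E-type cyclins CCNE1 and CCNE2, their kinase CDK2, the inhibitor CDKN1B (p27), the retinoblastoma protein RB1 and the transcription factor E2F1. They were chosen by gene symbol, and all 10 were found among the 14949 genes of the expression table. RNA sequencing was performed on 3 libraries of MIAPaCa-2 cells, a long-established line from a human pancreatic cancer that grows in culture. The first library came from untreated cells that carry a control short hairpin RNA (sh-CTL). The second came from untreated cells that carry a hairpin against METTL3 (sh-METTL3), the catalytic subunit of the enzyme that writes N6-methyladenosine on mRNA. The last came from sh-CTL cells exposed to NMS-P937, an inhibitor of the mitotic kinase PLK1, at 80 nM for 24 h (sh-CTL + PLK1i, shortened to PLK1i). All 3 libraries thus come from cells with a hairpin, and the study compared METTL3 knockdown and PLK1 inhibition with the same control library. Whether a hairpin line was a clone or a pool was not given in the sources used here.

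In a dividing cell, growth signals raise the D-type cyclins, which bind CDK4 or CDK6 and start to phosphorylate RB1. Phosphorylated RB1 releases E2F transcription factors, which switch on CCNE1, CCNE2, E2F1 itself and the genes of DNA replication, and cyclin E with CDK2 then phosphorylates RB1 further. CDKN1B and related inhibitors hold these kinases back, and in pancreatic cancer the INK4 inhibitors that act on CDK4 and CDK6 are often lost.

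Each group held 1 library, so no p-value was computed, and each comparison sets 2 libraries against each other, not 2 conditions with replicates. The libraries held 37449292, 46944903 and 47727576 reads in the listed genes, for sh-CTL, sh-METTL3 and PLK1i. Changes are given as log2 of the normalized count plus 1, minus the same in sh-CTL, with exact Clopper-Pearson 95% intervals for counting error alone. For the change of a ratio between a pair of genes, the interval is the conditional exact 95% interval of the odds ratio of their reads. METTL3 checked the labels, with normalized counts of 3939 (sh-CTL), 1651 (sh-METTL3) and 3888 (PLK1i). Of 15 markers of epithelial, mesenchymal and other cells, 6 were listed. These were the epithelial keratins KRT8, KRT18 and KRT19, the mesenchymal VIM and ZEB1, and COL1A1 of other cells. The epithelial EPCAM, CDH1 and KRT7, the mesenchymal CDH2 and FN1, and PTPRC, PECAM1, INS and PRSS1 of other cells had no row. In sh-METTL3 the keratins changed by 0.26 (KRT8), 0.27 (KRT18) and 0.43 (KRT19) on the log2 scale, and the mesenchymal markers differed in direction, with -0.40 for VIM and 0.25 for ZEB1. In PLK1i the keratins changed by -0.10, -0.09 and -0.06, VIM by 0.0098 and ZEB1 by 0.39. COL1A1 had 34, 6 and 36 reads, with changes of -2.63 and -0.25. The part of these markers in the changes below was not tested. In bulk RNA, fewer cells in a phase of the cycle and less RNA per cell cannot be told apart.

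The 10 G1 regulators were all well covered, with 924 to 10250 reads per gene and library, and most of them stayed close to their level in sh-CTL. In sh-METTL3, 1 of 10 genes, CDK4, was at least 25% higher and 0 were at least 20% lower, while among all genes 15.8% were at least 25% higher and 14.5% at least 20% lower. These limits are the same distance from 0 on the log2 scale. In PLK1i, 0 of 10 were higher and 1, E2F1, was lower by that measure, against 10.2% and 11.5% of all genes. All 10 genes had mean normalized counts above 200, and among the 10782 genes with a mean of 200 or more the shares were lower, at 9.19% higher and 10.6% lower in sh-METTL3, and 4.67% and 5.67% in PLK1i. None of the 10 genes was 2-fold higher or lower in either comparison. Among all genes, 3.42% were 2-fold higher and 2.94% 2-fold lower in sh-METTL3, and 1.39% and 1.13% in PLK1i. The median change of the 10 genes was 0.024 in sh-METTL3 and -0.094 in PLK1i, and the median of all genes was 0.0013 and 0.0023.

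**Figure D1:**
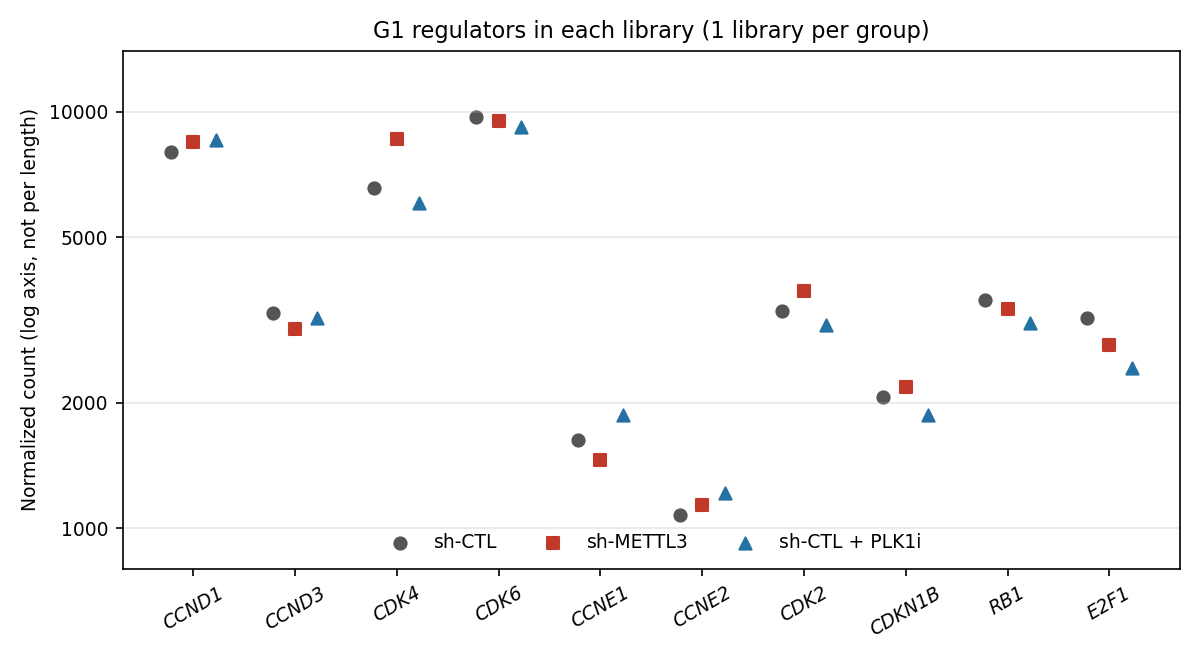
Normalized count (log axis, not divided by gene length) of each G1 regulator in the 3 libraries, 1 point per library. The CDK4 point of sh-METTL3, at 8592, stands above those of the other 2 libraries, and the E2F1 points go down from 3202 in sh-CTL to 2426 in PLK1i.

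CCND1 (cyclin D1, ENSG00000110092; GRCh37 chromosome 11, 69455924 to 69469242, plus strand) activates CDK4 and CDK6. Its normalized count was 7991 (sh-CTL), 8477 (sh-METTL3) and 8529 (PLK1i). Both changes were small and above 0, at 0.09 (0.04 to 0.13) in sh-METTL3 and 0.09 (0.05 to 0.14) in PLK1i, and 68.8% and 57.5% of well-expressed genes (a mean of 200 or more normalized counts) changed by as much or more in either direction. CCND3 (cyclin D3, ENSG00000112576; chromosome 6, 41902672 to 42018095, minus strand), its relative with the same partners, had 3287, 3010 and 3203 in the same order, which is kept for all later sets of 3 values. CCND3 was lower beyond counting error in sh-METTL3, with a change of -0.13 (-0.20 to -0.05), and was not separable from sh-CTL in PLK1i, with -0.04 (-0.11 to 0.03). The ratio of CCND1 to CCND3, which depends neither on scaling nor on gene length, was 1.16-fold that of sh-CTL in sh-METTL3 and 1.10-fold in PLK1i.

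CDK4 (ENSG00000135446; chromosome 12, 58141510 to 58149796, minus strand), the first kinase of the RB1 pathway, had the largest change of the 10 genes in sh-METTL3. Its normalized count was 6565 (sh-CTL), 8592 (sh-METTL3) and 6043 (PLK1i). The sh-METTL3 library stood above the other 2, at 131% of sh-CTL, and the PLK1i library was at 92.0%. The log2 changes were 0.39 (0.34 to 0.44) and -0.12 (-0.17 to -0.07), and set directly against each other the sh-METTL3 library was 0.51 (0.46 to 0.55) above the PLK1i library. A change as large as that of CDK4 in sh-METTL3 was seen in 14.5% of the well-expressed genes. Exons of CDK4 share 1369 bases with TSPAN31 on the opposite strand, which had 161, 150 and 222 reads.

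The CDK4 promoter is shown because this gene carried the change in sh-METTL3. The window runs from 250 bases before the transcription start to 50 after it (RefSeq, GRCh38.p14 chr12:57752261-57752560, minus strand, printed 5′ to 3′ along the gene). Capitals mark the E-box CACGTG, the letters bound by MYC and related factors.
CDK4: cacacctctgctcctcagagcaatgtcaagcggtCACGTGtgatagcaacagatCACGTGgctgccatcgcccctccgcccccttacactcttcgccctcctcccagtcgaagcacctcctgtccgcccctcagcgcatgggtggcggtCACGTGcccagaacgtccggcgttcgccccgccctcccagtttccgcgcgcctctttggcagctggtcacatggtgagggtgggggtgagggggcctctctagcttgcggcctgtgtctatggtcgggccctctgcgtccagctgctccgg
The E-box occurs 3 times, beginning 216, 196 and 101 bases before the start. At least 1 E-box is present in 7.26% of the 35116 RefSeq windows of this length, searched on both strands. A match describes the letters and not a bound site.

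CDK6 (ENSG00000105810; chromosome 7, 92234235 to 92465887, minus strand) shares its cyclins and its substrate with CDK4 but did not share its change. The normalized counts of CDK6 were 9695, 9501 and 9190, in the order sh-CTL, sh-METTL3 and PLK1i, so that the lowest library, PLK1i, was at 94.8% of sh-CTL. Its changes were -0.029 (-0.071 to 0.013) in sh-METTL3 and -0.08 (-0.12 to -0.04) in PLK1i. The ratio of CDK6 to CDK4 was therefore 0.749-fold that of sh-CTL in sh-METTL3, a log2 change of -0.42 (-0.48 to -0.35), and 1.03-fold in PLK1i, with a log2 change of 0.04 (-0.02 to 0.11). Per kilobase of summed exons, CDK6 made up 27.2% (sh-CTL), 21.8% (sh-METTL3) and 27.8% (PLK1i) of the CDK4 and CDK6 level.

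**Figure D2:**
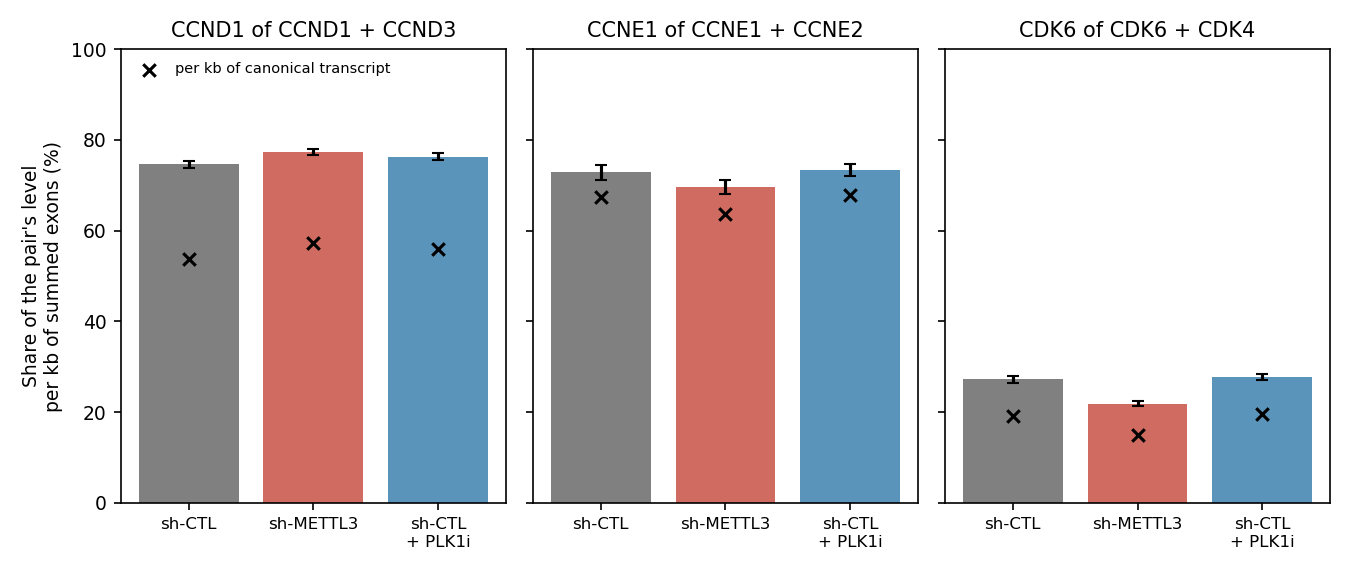
Share of the first gene in the summed level of each pair (%, per kilobase of summed exons), 1 bar per library, with 95% counting intervals. Crosses give the share per kilobase of the canonical transcript, and under either length the CDK6 share is lowest in sh-METTL3, at 21.8% by the bars.

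The E-type cyclins were both higher in PLK1i and differed from each other in sh-METTL3. CCNE1 (cyclin E1, ENSG00000105173; chromosome 19, 30302898 to 30315219, plus strand), which activates CDK2 at the end of G1, had a normalized count of 1626 (sh-CTL), 1462 (sh-METTL3) and 1875 (PLK1i). The PLK1i library was the highest and the sh-METTL3 library the lowest, with changes of 0.21 (0.11 to 0.31) and -0.15 (-0.26 to -0.05). CCNE2 (cyclin E2, ENSG00000175305; chromosome 8, 95891998 to 95908906, minus strand), the second activator of CDK2, had 1077, 1137 and 1214. Its change in PLK1i was 0.17 (0.05 to 0.30), and in sh-METTL3 it was 0.08 (-0.05 to 0.20), with an interval that spans 0. The ratio of CCNE1 to CCNE2 changed by -0.23 (-0.39 to -0.07) in sh-METTL3 and by 0.034 (-0.125 to 0.192) in PLK1i on the log2 scale. Exons of CCNE2 share 1629 bases with INTS8 on the opposite strand, which had 2113, 2710 and 2510 reads. The libraries were prepared with a stranded kit, but whether the counting used the strand was not given in the sources used here, so the values of CCNE2 and CDK4 are uncertain to that extent. The same holds for CCND1, whose exons share 497 bases with LTO1 on the opposite strand, listed with 1122, 1361 and 1510 reads.

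CDK2 (ENSG00000123374; chromosome 12, 56360565 to 56366573, plus strand), the partner of cyclins E and A, was highest in sh-METTL3 and lowest in PLK1i. Its normalized counts were 3330, 3719 and 3084, in the order sh-CTL, sh-METTL3 and PLK1i. The changes were 0.16 (0.09 to 0.23) and -0.11 (-0.18 to -0.04), in the same directions as those of CDK4. CDKN1B (p27, ENSG00000111276; chromosome 12, 12838432 to 12875303, plus strand), which inhibits cyclin E with CDK2, had 2066, 2187 and 1875. Its change was 0.08 (-0.01 to 0.17) in sh-METTL3 and -0.14 (-0.23 to -0.05) in PLK1i. CDKN1B and CDK2 thus kept nearly the same ratio, which changed by -0.08 (-0.19 to 0.04) and -0.029 (-0.147 to 0.089) with intervals that span 0. CDK4, CDK2 and CDKN1B lie on chromosome 12, where the median over listed genes was -0.030 in sh-METTL3 and -0.019 in PLK1i. The genes nearest to each are described below.

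RB1 (ENSG00000139687; chromosome 13, 48877880 to 49173572, plus strand), the pocket protein that restrains E2F factors, was listed at a normalized count of 3533 (sh-CTL), 3367 (sh-METTL3) and 3114 (PLK1i). The order went from sh-CTL down to PLK1i. The change was -0.07 (-0.14 to 0.00) in sh-METTL3 and -0.18 (-0.25 to -0.11) in PLK1i, where 30.3% of well-expressed genes changed by as much or more.

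E2F1 (ENSG00000101412; chromosome 20, 32263283 to 32274191, minus strand), the activator that RB1 holds in check, was lower in both conditions than in sh-CTL and had the largest change of the 10 genes in PLK1i. Its normalized count was 3202 (sh-CTL), 2750 (sh-METTL3) and 2426 (PLK1i), or 85.9% and 75.8% of sh-CTL. The changes were -0.22 (-0.29 to -0.14) in sh-METTL3 and -0.40 (-0.48 to -0.32) in PLK1i. A change at least as large as the latter was seen in 5.67% of well-expressed genes, and one as large as the former in 33.8%. E2F1 and CCNE1, both known targets of E2F factors, went in opposite directions in PLK1i.

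The E2F1 promoter is shown because E2F factors are known to act on it. The window covers the same span around the start (RefSeq, GRCh38.p14 chr20:33686336-33686635, minus strand, printed 5′ to 3′ along the gene). Capitals mark E2F words, searched on both strands as TTTCCCGC, TTTCCCGG, TTTCGCGC, TTTCGCGG, TTTGCCGC, TTTGCCGG, TTTGGCGC and TTTGGCGG.
E2F1: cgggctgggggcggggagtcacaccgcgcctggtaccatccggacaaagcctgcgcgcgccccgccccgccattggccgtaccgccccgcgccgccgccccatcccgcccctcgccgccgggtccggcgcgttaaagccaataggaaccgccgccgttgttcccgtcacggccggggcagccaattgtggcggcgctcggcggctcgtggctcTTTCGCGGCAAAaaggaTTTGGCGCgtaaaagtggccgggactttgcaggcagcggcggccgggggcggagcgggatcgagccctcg
The window holds 3 words, TTTCGCGG from 37 bases before the start, TTTGCCGC on the opposite strand from 33 bases before it, and TTTGGCGC from 20 bases before it, and the first 2 overlap. An E2F word is present in 6.19% of the 35116 windows. RefSeq windows were used for 7 of the 10 genes, with 10 windows in all. Of these, 1 held an E2F word, that of E2F1, and 2 held an E-box, that of CDK4 and 1 of the windows of CDK6. No window was matched for CCND1, CCNE2 and CDK2, so their promoters were not searched, and whether they hold either motif was not tested. The lack of a window here does not show that RefSeq has none for these genes.

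**Figure D3:**
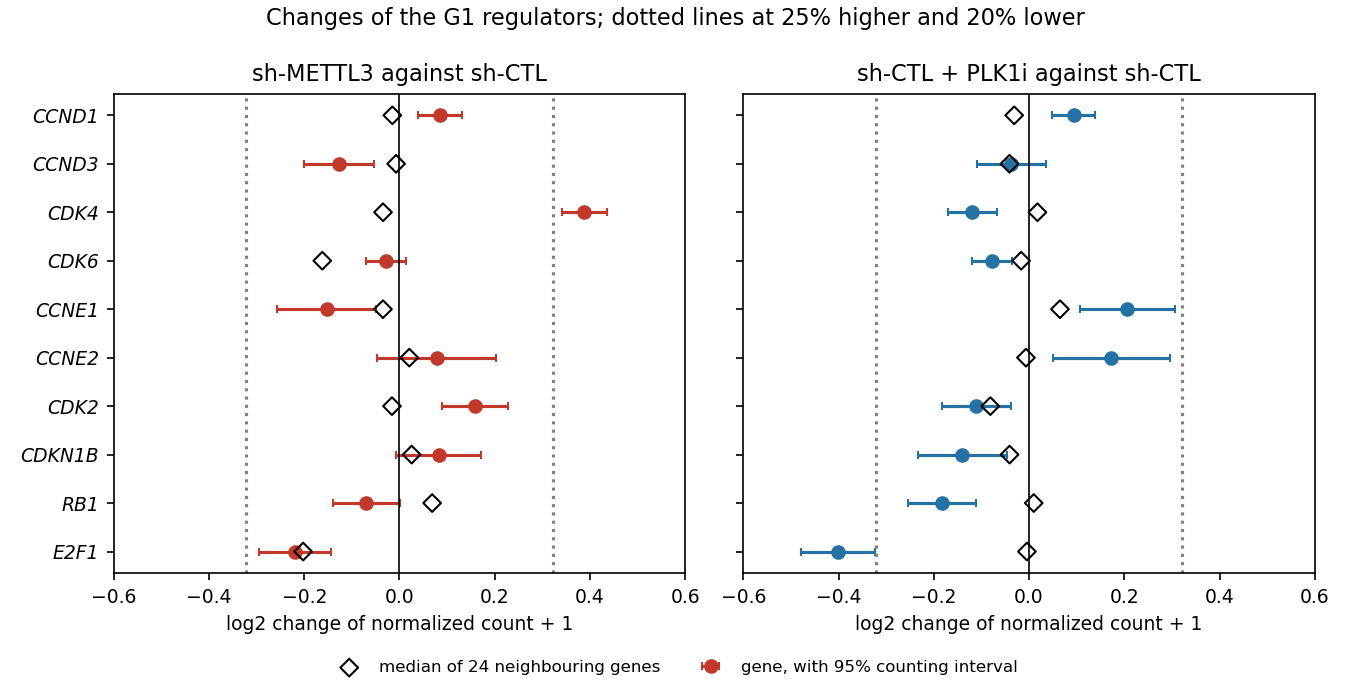
log2 change of the normalized count plus 1 for each G1 regulator (filled points, with 95% counting intervals) and the median change of its 24 neighbouring genes (open diamonds), for sh-METTL3 on the left and PLK1i on the right. CDK4 at 0.39 on the left and E2F1 at -0.40 on the right are the points beyond the dotted lines, which mark 25% higher and 20% lower, and on the left the E2F1 point and its diamond, at -0.20, nearly coincide.

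Each change was set beside the 24 nearest listed genes whose mean normalized count was 50 or more, since genes of a chromosome stretch can change together. The neighbours of E2F1 changed by -0.20 in sh-METTL3 at the median, close to its own -0.22, and 12 of the 24 changed by as much or more in either direction. In PLK1i, the neighbours of E2F1 had a median of -0.0044, and 4 of the 24 changed by as much as E2F1. The neighbours of CDK6 had a median of -0.16 in sh-METTL3 and the 629 such genes of chromosome 7 had -0.25, so CDK6 was 0.13 above its neighbours. CDK4 stood 0.42 above its neighbours in sh-METTL3, with 6 of the 24 changing by as much or more. The neighbours of CDK2 had medians of -0.016 in sh-METTL3 and -0.081 in PLK1i. Of these 24, 14 and 16 changed by as much as CDK2 or more. The neighbours of CDKN1B had medians of 0.026 and -0.041, with 16 and 13 of the 24 changing by as much or more. CCNE1 and CCNE2 stood 0.14 and 0.18 above their neighbours in PLK1i, with 3 and 4 of the 24 changing as much. RB1 stood below its neighbours, by 0.14 in sh-METTL3 and 0.19 in PLK1i, with 18 and 7 of the 24 changing by as much or more. The medians of these neighbours were 0.069 and 0.0099.

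Levels between the 10 genes were compared per kilobase of summed exons. In sh-CTL, CDK4 was highest with a normalized count per kilobase of 2122, followed by CCND1 with 1678, E2F1 with 1190, CDK2 with 857, CDK6 with 792, CCNE1 with 661, CCND3 with 571, RB1 with 549, CCNE2 with 245 and CDKN1B with 223. The counting intervals of CCND3 and RB1 overlapped, as did those of CCNE2 and CDKN1B, so these neighbours in the order were not separable. CDK4, CCND1, E2F1 and CDK2 kept the first 4 places in all 3 libraries. The intervals of CDK2 and CCNE1 overlapped in PLK1i, however, as did those of E2F1 and CDK2 in sh-METTL3. The order rests on the length used, since CCND3 and CDKN1B have long alternative exons. Per kilobase of the canonical transcript, CCND3 came after CCND1 in sh-CTL with 1623 and CDKN1B lay above CCNE1 with 857, while CDK4 and CCND1 stayed on top in each library and CCNE2 came last. By the summed exons CCND1 made up 74.6% of the CCND1 and CCND3 level in sh-CTL, and by the canonical transcripts 53.7%. CCNE1 made up 72.9% (sh-CTL), 69.7% (sh-METTL3) and 73.4% (PLK1i) of the CCNE1 and CCNE2 level, and by the canonical transcripts 67.4%, 63.8% and 67.9%.

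Beyond the 10 genes, 36 of 40 other genes of the G1/S pathway were listed. In sh-METTL3, 0 of the 36 were at least 25% higher and 5 (13.9%) were at least 20% lower, against 15.8% and 14.5% of all genes, with a list median of -0.035. In PLK1i, 3 (8.33%) were higher and 4 (11.1%) lower by that measure, against 10.2% and 11.5% of all genes, with a median of -0.047. Apart from the lack of higher genes in sh-METTL3, these shares lay near those of all genes. Among genes with a mean of 200 or more, 9.19% were higher and 10.6% lower in sh-METTL3, and 4.67% and 5.67% in PLK1i. All of the 36 reach this mean except CDK3 and CDKN1C, which are among the 4 lower in PLK1i. The CDK inhibitors included the largest changes. CDKN1A (p21), which binds cyclin and CDK complexes and is a target of p53, had normalized counts of 506 (sh-CTL), 154 (sh-METTL3) and 766 (PLK1i). The sh-METTL3 library was thus the lowest and the PLK1i library the highest, with changes of -1.71 (-1.98 to -1.46) and 0.60 (0.43 to 0.77). CDKN1C (p57), a further relative of CDKN1B, had 99.1, 113 and 47.9, from 52 to 122 reads, and its changes were 0.19 (-0.22 to 0.61) and -1.03 (-1.58 to -0.54).

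Of the INK4 inhibitors, which act on CDK4 and CDK6, CDKN2C (p18) had normalized counts of 1284, 920 and 1096 and was lower than sh-CTL in both libraries, with changes of -0.48 (-0.61 to -0.36) and -0.23 (-0.35 to -0.11). CDKN2D (p19) had 303, 338 and 265, with changes of 0.16 (-0.07 to 0.39) and -0.19 (-0.44 to 0.05) and both intervals spanning 0. CDKN2A and CDKN2B had no row in the table, in which every gene reached at least 0.503 CPM (reads scaled to a common library total) in its highest library. MIAPaCa-2 is known to carry a deletion of CDKN2A.

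Among the other E2F factors, E2F5, a repressor that works with RB1 relatives, had normalized counts of 351, 191 and 311 and changed by -0.87 (-1.14 to -0.62) in sh-METTL3. E2F7, which represses E2F targets including E2F1, had 1030, 662 and 838, with changes of -0.64 (-0.78 to -0.49) and -0.30 (-0.43 to -0.16). E2F7 and E2F1 were thus both lower than sh-CTL in both libraries. CUL1, the scaffold of the ubiquitin ligase that destroys CDKN1B and cyclin E, changed by -0.39 in sh-METTL3 and 0.13 in PLK1i. CUL1 lies on chromosome 7, where the genes used for the neighbour comparison had a median of -0.25 in sh-METTL3. The part of this shift in the change of CUL1 was not tested. In PLK1i, CKS1B, which helps that ligase to recognise CDKN1B, changed by -0.41, and FBXW7, the subunit that recognises cyclin E, by 0.37. The remaining genes past these limits in PLK1i were CCNH, a subunit of the CDK-activating kinase, with 0.35, RBBP4, which binds RB1, with -0.37, and CDK3 with -0.36 on 138 to 165 reads.

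CCND2, the remaining D-type cyclin, had no row. An unnamed entry that spans it on the same strand, ENSG00000285901 (chromosome 12, 4382928 to 4514656), had 0 reads (sh-CTL), 215 (sh-METTL3) and 494 (PLK1i). Against a floor of 3 reads in sh-CTL, the listed count is at least 57.0-fold higher in sh-METTL3 and at least 130.0-fold higher in PLK1i. How the counting shared reads between overlapping entries was not given in the sources used here. These folds are thus of the listed counts only. The annotated transcript of this entry has 10 exons, of which 4 overlap exons of CCND2 and 3 overlap exons of its neighbour TIGAR. TIGAR was listed on its own with 1277, 1858 and 1603 reads, or normalized counts of 1489, 1722 and 1476. Its changes were 0.21 in sh-METTL3 and -0.013 in PLK1i. The table does not show in which exons the reads of ENSG00000285901 fell, so no level of CCND2 was derived from them.

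The 42 E2F target genes, which encode replication, nucleotide and repair proteins, were all listed, and they lay lower in PLK1i. Their median change there was -0.16, and 34 of 42 (81.0%) were below 0, against 49.4% of all genes. The replication helicase genes MCM3, MCM4, MCM5 and MCM6 were at least 20% lower, with changes of -0.37, -0.33, -0.35 and -0.33. In all, 5 of the 42 (11.9%) were at least 20% lower and 0 at least 25% higher, against 11.5% and 10.2% of all genes. Among well-expressed genes, to which all 42 belong, 5.67% were lower and 4.67% higher by that measure. In sh-METTL3 the median was -0.0042 and 22 of 42 (52.4%) were below 0, against 49.8% of all genes. There TYMS, the thymidylate synthase, and CDCA7 were at least 25% higher, each with 0.39, and MCM10 was at least 20% lower, with -0.42. These 2 of 42 (4.76%) and 1 of 42 (2.38%) stand against 15.8% and 14.5% of all genes. Among well-expressed genes the shares were 9.19% and 10.6%. Both comparisons use the same sh-CTL library, so their values are given side by side only.

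**Figure D4:**
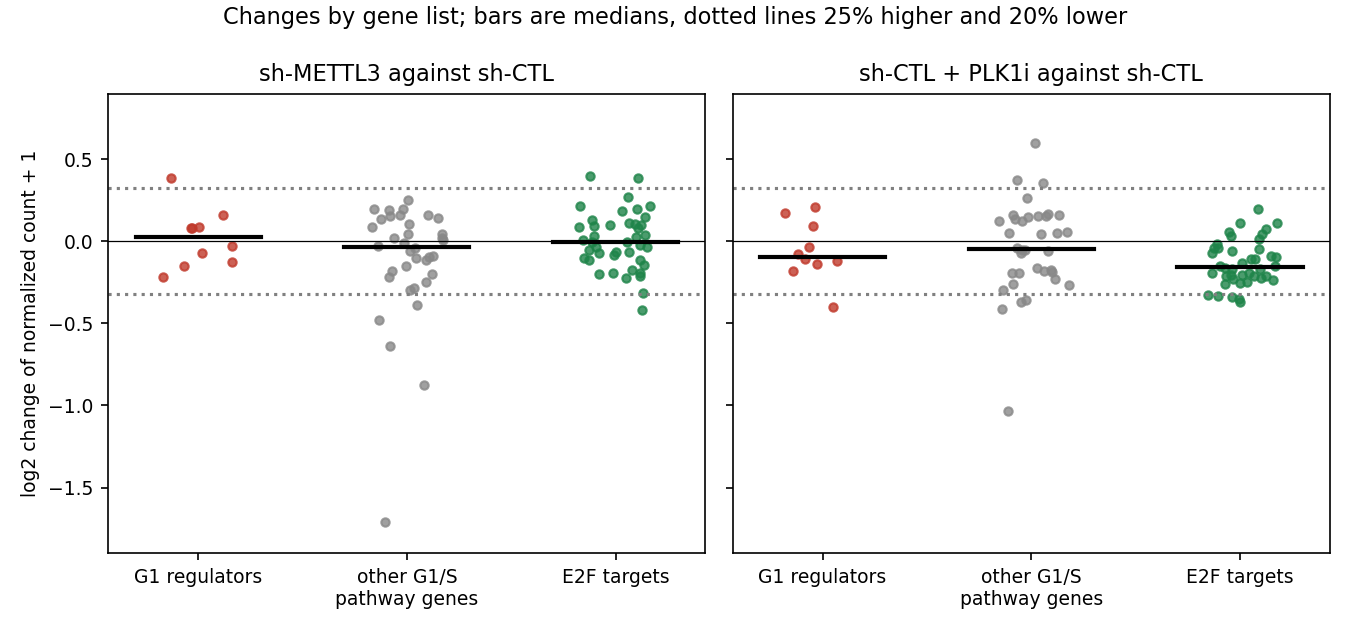
log2 change of the normalized count plus 1 of each gene in the 3 lists, in sh-METTL3 on the left and PLK1i on the right. Bars are medians, dotted lines mark 25% higher and 20% lower, and the horizontal position of points within a list has no meaning. On the right the E2F targets have a median of -0.16 and the G1 regulators of -0.094, and the lowest point on the left is CDKN1A at -1.71.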

How the data were processed

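RNA was sequenced from 3 libraries, 1 per group, prepared with the TruSeq stranded mRNA kit. The submitters' processing notes name FastQC 0.11.9, STAR 2.7.10, RSEM 1.3.3 and hg19. The annotation and the normalization were not given in the sources used here. The authors deposited log2 values for 14949 genes, which are log2 of a normalized count plus 4. Undoing this gave whole reads: of values worth less than 2000 reads, 100% were whole to a tolerance of 0.1. The steps gave size factors of 0.858, 1.08 and 1.09, and median-of-ratios factors computed from the reads rounded to the same values.

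Changes were computed with a pseudocount of 1, a scale that understates changes of genes with few reads. A minimum mean of 1 removed no gene. A count test was not run, since 1 library per group leaves no spread to estimate, and for the same reason intervals cover counting error only. Amplified reads are not independent molecules, so the intervals may understate even that error. Positions and lengths came from GENCODE 44 on GRCh37, and promoters from RefSeq on GRCh38.p14. Python 3.11.15, numpy 2.4.6, pandas 2.3.3 and scipy 1.17.1 were used, and the calculation was tested on simulated data.

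The genes named were the 10 regulators, the other pathway and E2F target genes at least 25% higher or 20% lower in either comparison, the CDK inhibitors and CCND2 whatever their values, METTL3, the cell type markers, and listed genes overlapping on the same strand, of which there was 1, ENSG00000285901. TSPAN31, INTS8 and LTO1, which share exon bases with a regulator on the opposite strand, and TIGAR were added after their values were seen. A gene that this rule selects is not reported here. PLK1, a further check, had normalized counts of 8058 (sh-CTL), 5226 (sh-METTL3) and 8515 (PLK1i). Its changes were -0.62 (-0.68 to -0.57) in sh-METTL3 and 0.08 (0.03 to 0.12) in PLK1i. The members and lists were chosen with earlier results of these data known. Alternatives were other scalings, pseudocounts and filters on low values, subtraction of neighbouring genes, and other gene lengths.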

Additional observations from a re-analysis of the deposited data

How the results depend on the processing

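No paired analysis was possible because each group had 1 library, and no library could be left out. Under 3 other scalings (CPM, upper-quartile and median-of-ratios factors) and pseudocounts of 4 and 0.5, all 320 values of single named genes kept within their counting intervals, and no change of the 10 G1 regulators moved by more than 0.020 on the log2 scale. Minus the neighbouring genes, 17 of 20 changes of the G1 regulators stayed within their intervals, and the other 3 were 0.13 for CDK6 and -0.017 for E2F1 in sh-METTL3 and -0.030 for CDK2 in sh-CTL + PLK1i. Where the mean normalized count had to reach 200, 10782 genes were left: in sh-METTL3, 991 were at least 25% higher and 1148 at least 20% lower, and 111 and 123 at least 2-fold higher and lower, and in sh-CTL + PLK1i 504 and 611, and 19 and 7. Under this minimum 2 pathway genes were at least 20% lower and 0 at least 2-fold lower in sh-CTL + PLK1i, and with a pseudocount of 4 the latter was also 0, where 1 gene, CDKN1C, had been counted.

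The shares within pairs depend on the length used, in the order sh-CTL, sh-METTL3 and sh-CTL + PLK1i. CCND1 made up 57.9%, 61.4% and 60.1% of its pair per kilobase of the longest transcript, 70.9%, 73.8% and 72.7% of reads undivided by length, and 53.7%, 57.4% and 56.0% per kilobase of the canonical transcript, a length chosen after seeing the data. CCNE1 made up 60.1%, 56.2% and 60.7% of undivided reads, and 67.4%, 63.8% and 67.9% by the canonical transcript. CDK6 made up 19.1%, 15.0% and 19.6% by the longest and by the canonical transcript alike, and 59.6%, 52.5% and 60.3% of undivided reads. With 1 library per group, differences between cultures could not be measured, and the depth limits genes with few reads, such as CDKN1C with 52 in sh-CTL + PLK1i.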
